A study of Mus musculus with 10 samples.

Results

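A set of 9 genes was followed in mouse medial prefrontal cortex, 6 of them known as genes of reactive astrocytes (Gfap, Vim, Serpina3n, Cd44, S1pr3 and Steap4) and 3 coding for receptor chains of the interleukin-6 cytokine family (Osmr, Il6st and Lifr). They were taken by gene symbol from a deposited table of 78317 genes, in which all 9 were listed once. Poly(A) RNA was sequenced from 1-mm tissue punches of wild-type mice. There were 5 libraries (numbers 13, 14, 15, 17 and 18) from mice given an adeno-associated virus (AAV) for overexpression of miR-130a-3p, and 5 libraries (numbers 3, 4, 5, 7 and 9) from mice given a control AAV. The labels used here give no age, sex, strain, dose or interval after injection, and neither the AAV serotype nor the promoter that drives the microRNA. The gene Mir130a was listed at 0 in all 10 libraries, so these values do not measure the overexpression itself.

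Astrocytes react to injury, infection and inflammatory cytokines by a change of shape and gene expression called reactive gliosis, and the intermediate filament protein GFAP is its classical marker. Cytokines of the interleukin-6 family signal through gp130, the protein of Il6st, which pairs with the leukaemia inhibitory factor receptor (Lifr) or the oncostatin M receptor (Osmr) and activates JAK kinases and the transcription factor STAT3. In astrocytes this pathway is known to drive Gfap and other genes of reactive gliosis. Most of the 9 genes are also used by other cells: Vim by endothelial and mural cells, Cd44 by leukocytes, and Il6st by nearly all cell types.

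The microRNA and its possible sites are shown first because 3 of the 9 genes hold one, among them 2 of the gp130 family receptors. The mature sequence, from RefSeq (GRCm38.p6, chr2:84741116-84741137, minus strand), has its seed, bases 2 to 8, in capitals.
mmu-miR-130a-3p: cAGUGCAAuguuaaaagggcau
The longest 3′ untranslated region (UTR) annotated for each gene in GENCODE M21 (GRCm38) was searched for the seed matches TTGCACT and TGCACTA. Of the 9 genes, 3 held a match, each 1, against 16% of 13275 tested genes with an annotated 3′ UTR. That share is not matched for length, and a longer UTR offers more places for a match. The 3 UTRs measured 6320 bases for Lifr, 5641 for Il6st and 2876 for S1pr3. Those without a match ran from 342 bases for Vim to 2992 for Cd44. The matches are in capitals with 10 bases on either side, at chr13:51420456-51420462 for S1pr3, chr13:112504667-112504673 for Il6st and chr15:7194751-7194758 for Lifr, all on the plus strand of GRCm38.
S1pr3: cccagtgcccTTGCACTggtgttctaa
Il6st: ttcagaatgtTTGCACTgccgaaaaca
Lifr: tttgttgtgtTTGCACTAaggtaatttc
The Lifr match is the longest, since it holds both heptamers. Gfap, Vim, Serpina3n, Cd44, Steap4 and Osmr had no match in that window. A match is a description of the letters and not evidence of binding.

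For 8 of the 9 genes the highest miR-130a library lay below the lowest control library, and the exception was Lifr. A gene's level was compared as log2(TPM + 1) with limma over all 15680 genes with a mean of at least 1 TPM (transcripts per 1000000, a value per transcript length), with Benjamini-Hochberg adjustment over those genes and a threshold of 0.05. Of the 9 members, 8 passed that filter, each with a mean above 1 TPM in both groups. Of these, 7 fell, 0 rose and Lifr did not pass. Over all tested genes 11.3% were called lower and 2.19% higher, and 9.46% had every miR-130a library below every control. The split of 1767 lower and 343 higher genes depended on scaling, with 1192 and 862 under median-ratio scaling, 1046 and 1071 under quantile normalization, and 1347 and 488 with mitochondrially encoded genes left out of the total. The median log2 fold change was −1.11 over the 8 members and −0.09 over all genes tested. Since these are bulk libraries, fewer cells of a type and less RNA per cell cannot be told apart.

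**Figure D1:**
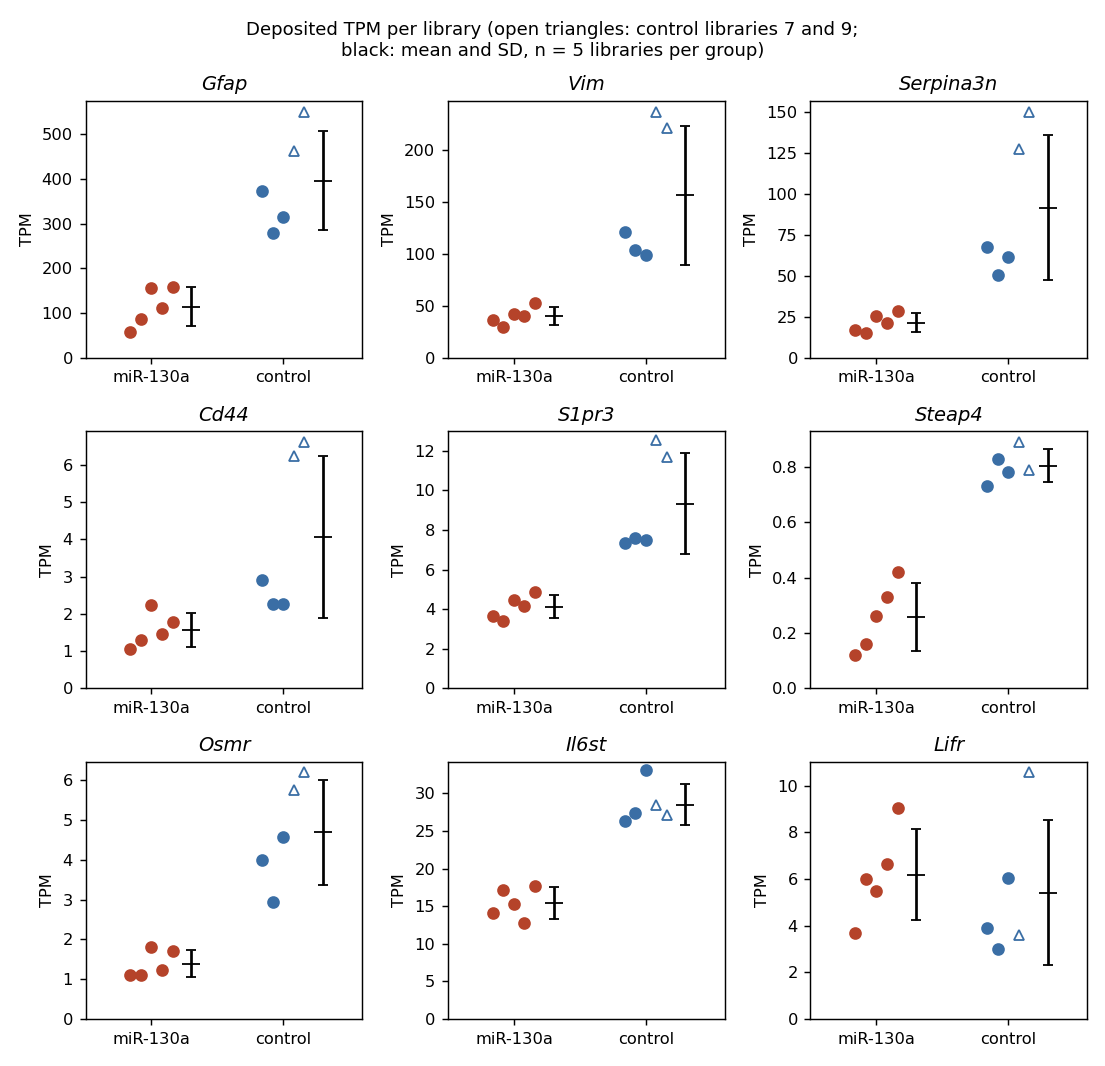
Deposited TPM of the 9 genes in each library, with 1 panel per gene, miR-130a libraries at left and control libraries at right, and the mean and SD in black (n = 5 each). Every miR-130a library lies below every control for all genes but Lifr, and control libraries 7 and 9 (open triangles) lie above the other controls for Gfap, Vim, Serpina3n, Cd44, S1pr3 and Osmr.

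Gfap (ENSMUSG00000020932), the main intermediate filament of astrocytes, had 58.3, 86.85, 156, 112 and 157 TPM in miR-130a libraries 13, 14, 15, 17 and 18, against 373, 279, 315, 462 and 550 TPM in control libraries 3, 4, 5, 7 and 9. The highest miR-130a library stayed well below the lowest control. Gfap averaged 114 ± 43.2 TPM in miR-130a libraries and 396 ± 111 TPM in control libraries (SD, n = 5 each; log2 fold change −1.83 ± 0.27 SE, limma adjusted p = 0.0021). Vim (ENSMUSG00000026728) codes for vimentin, the partner filament that reactive astrocytes take up again. It had 36.5, 29.7, 42.5, 40.7 and 52.7 TPM in miR-130a libraries, against 121, 104, 99.3, 237 and 222 TPM in controls. All miR-130a values lay below all controls, and control libraries 7 and 9 lay well above the other 3. Vim was lower by −1.85 ± 0.26 on the log2 scale (limma adjusted p = 0.00154). The Gfap-to-Vim log2 ratio was 1.41 ± 0.44 in miR-130a libraries and 1.39 ± 0.28 in controls, a difference of 0.02 (SD, n = 5 each; exact permutation p = 0.944, 2-sided; adjusted 0.944 over the 13 ratios tested).

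Serpina3n (ENSMUSG00000021091), a secreted inhibitor of serine proteases strongly induced in reactive astrocytes, had the largest fold change of the 8 members tested, an order that rests on control libraries 7 and 9 (without them −1.47, against −1.57 for Gfap). It had 17.2, 14.9, 25.8, 21.4 and 28.5 TPM in miR-130a libraries, against 67.9, 50.7, 61.8, 127 and 150 TPM in controls (log2 fold change −1.95 ± 0.29 SE, limma adjusted p = 0.00223). Control libraries 7 and 9 averaged 2.31 times the other 3 controls, and those 3 averaged 2.79 times the miR-130a mean. Ranked by fold change from the most lowered, Serpina3n stood at 137, Vim at 163 and Gfap at 166 of the 15680 genes. Serpina3n lies among close relatives, so reads may be shared between copies. Of 10 other genes of the Serpina3 cluster 2 passed the filter, both through the controls. Serpina3f, at 0.222 ± 0.352 TPM in miR-130a libraries and 4.44 ± 4.31 TPM in controls, and Serpina3g, at 0.894 ± 0.680 and 8.33 ± 7.89 TPM, both fell (SD, n = 5 each; limma adjusted p = 0.0283 and 0.0472). The control means of both rest on libraries 7 and 9, which averaged 9.14 TPM for Serpina3f and 16.7 TPM for Serpina3g, against 1.30 and 2.72 TPM in controls 3, 4 and 5. The Serpina3f call was lost without any 1 of 5 libraries (miR-130a 13, 14, 17 and 18, control 7), and that of Serpina3g without any 1 of 8 (all but controls 4 and 5), with limma adjusted p up to 0.0698 and 0.113.

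Cd44 (ENSMUSG00000005087), the cell surface receptor for hyaluronan, had 1.06, 1.30, 2.24, 1.46 and 1.77 TPM in miR-130a libraries, against 2.91, 2.27, 2.26, 6.23 and 6.62 TPM in controls. The groups touched, with miR-130a library 15 at 2.24 TPM and control library 5 at 2.26 TPM. Cd44 was lower by −0.89 ± 0.27 (SE) on the log2 scale with a limma adjusted p of 0.0472, the least secure of the 7 calls. The call was lost without any 1 of 8 libraries in turn, all but controls 4 and 5 (adjusted p up to 0.115), and without controls 7 and 9 together the fold change was −0.45 (limma adjusted p = 0.118). S1pr3 (ENSMUSG00000067586), a receptor for sphingosine-1-phosphate that is raised in reactive astrocytes, had 3.67, 3.41, 4.47, 4.17 and 4.85 TPM in miR-130a libraries, against 7.33, 7.62, 7.50, 12.5 and 11.7 TPM in controls. All miR-130a values lay under 5 TPM and all controls above 7 TPM (log2 fold change −0.99 ± 0.16 SE, limma adjusted p = 0.00349). S1pr3 is also 1 of the 3 genes with a seed match shown above.

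Steap4 (ENSMUSG00000012428), a metalloreductase that reduces iron and copper, was scarce, with 0.12, 0.16, 0.26, 0.33 and 0.42 TPM in miR-130a libraries, against 0.73, 0.83, 0.78, 0.89 and 0.79 TPM in controls. Its mean of 0.531 TPM kept it out of the main test. With the filter at 0.5 TPM it fell by 0.52 on the log2 scale (limma adjusted p = 0.0248), where 9.94% of 17840 genes were called lower. It passed this filter only through the controls, with means of 0.258 TPM in miR-130a libraries and 0.804 TPM in controls, so the call is no independent support. That fold change understates the difference at such low values, since it was −1.40 with a pseudocount of 0.1. The call was lost without control library 7 or miR-130a library 13 or 14 (limma adjusted p up to 0.0602). Unlike the other reactive genes its controls were even, with an SD of 7.44% of the mean, and libraries 7 and 9 averaged 1.08 times the other controls.

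**Figure D2:**
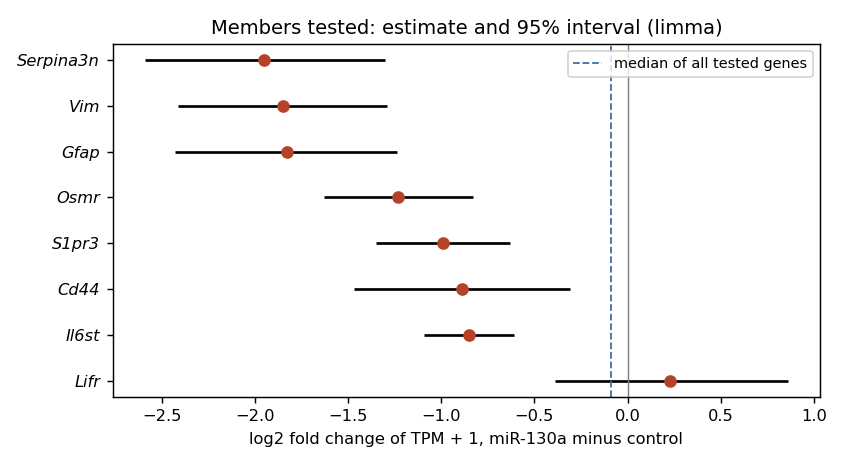
Log2 fold change (TPM + 1) of miR-130a minus control libraries for the 8 members tested, with 95% intervals from limma, and the median of all tested genes as a dashed line. Serpina3n, Vim and Gfap lie between −1.95 and −1.83, Il6st has the narrowest interval, and the interval of Lifr runs from −0.39 to 0.86.

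The 3 receptor chains of the gp130 family did not move alike. Osmr (ENSMUSG00000022146) had 1.11, 1.11, 1.80, 1.23 and 1.72 TPM in miR-130a libraries, against 3.99, 2.94, 4.58, 5.75 and 6.21 TPM in controls. It averaged 1.39 ± 0.339 TPM in miR-130a libraries and 4.69 ± 1.32 TPM in controls (SD, n = 5 each; log2 fold change −1.23 ± 0.18 SE, limma adjusted p = 0.00208). Il6st (ENSMUSG00000021756), the signal-transducing chain shared by the family, had 14.1, 17.1, 15.3, 12.8 and 17.7 TPM in miR-130a libraries, against 26.3, 27.5, 33.2, 28.4 and 27.2 TPM in controls. Both groups were tight and far apart, and controls 7 and 9 averaged 0.960 times the other controls. Il6st averaged 15.4 ± 2.07 TPM and 28.5 ± 2.72 TPM in miR-130a and control libraries (SD, n = 5 each; log2 fold change −0.85 ± 0.11 SE). Its adjusted p of 0.00111 in limma was the lowest of the 8 members tested although its fold change was the smallest of the 7 called. Both orders rest on control libraries 7 and 9. Without them the fold change of S1pr3 was smaller (−0.74, against −0.87 for Il6st). Vim then had a lower limma adjusted p (0.00323, against 0.00561 for Il6st).

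Lifr (ENSMUSG00000054263) had 3.68, 6.0, 5.49, 6.66 and 9.06 TPM in miR-130a libraries, against 3.88, 2.99, 6.02, 3.58 and 10.6 TPM in controls. The groups overlapped throughout, with the highest value in control library 9 (log2 fold change 0.23, 95% interval −0.39 to 0.86, limma adjusted p = 0.646). In every miR-130a library Lifr exceeded Osmr, whereas in controls their ranges overlapped. The Osmr-to-Lifr log2 ratio was −1.55 ± 0.34 in miR-130a libraries and −0.09 ± 0.46 in controls (SD, n = 5 each). Its difference of −1.46 had an exact permutation p of 0.00794, the smallest that 5 against 5 libraries allow, or 0.0129 adjusted over the 13 ratios. The Lifr-to-Il6st log2 ratio was higher by 1.09 (exact permutation p = 0.0317, adjusted 0.0459), but passed in only 1 of the 10 fits that left out a library, the one without control 9 (adjusted permutation p 0.0229 to 0.0917). The Osmr-to-Il6st ratio was lower by −0.38 and did not pass (exact permutation p = 0.0952, adjusted 0.113). It passed without control 4 (−0.49, adjusted permutation p = 0.0413) and with a pseudocount of 0.1 (−0.78, adjusted permutation p = 0.0229), since adding 1 shrinks the difference of a gene near 1 TPM such as Osmr. Of the 2 gp130 family receptors with a seed match for miR-130a-3p, Il6st was called lower and Lifr, with the longer match, was not.

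**Figure D3:**
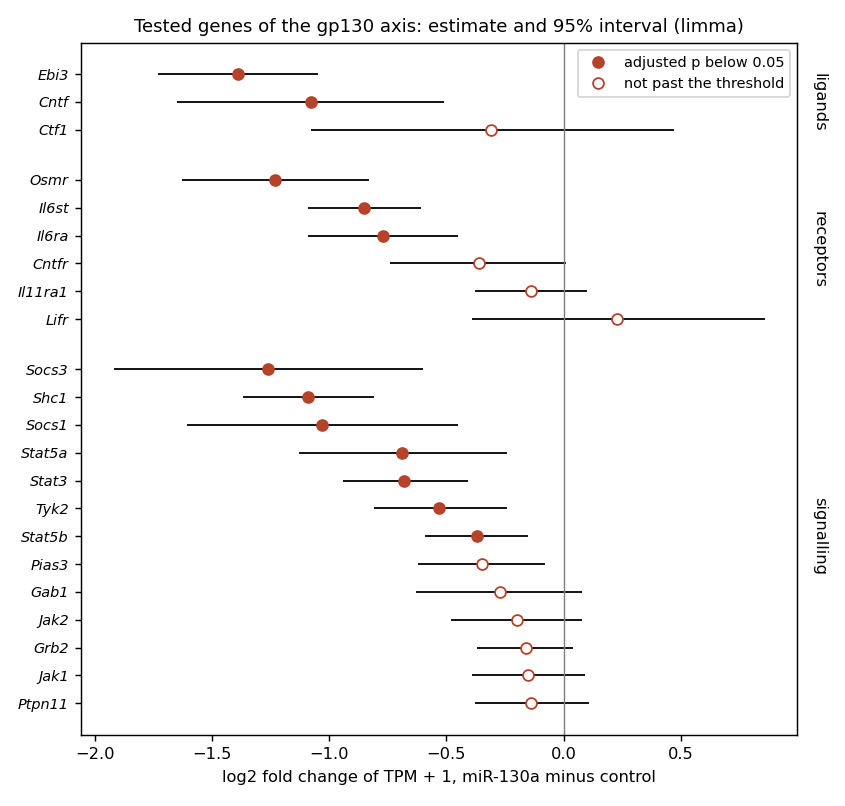
Log2 fold change (TPM + 1) of miR-130a minus control libraries for the ligands, receptor chains and signalling genes of the gp130 family that were tested and are reported here, with 95% intervals from limma. Filled points passed the adjusted threshold, all of them to the left of 0. Lifr is the only point shown to the right of 0.

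Ligands of the family were scarce in both groups. Of 11 ligand genes, 4 passed the filter, of which 2 fell and 0 rose, where 11.3% of all tested genes were called lower. Ebi3, a subunit of interleukin-27, was at 1.52 ± 0.335 TPM in miR-130a libraries and 5.63 ± 1.14 TPM in controls (SD, n = 5 each; limma adjusted p = 0.000735). Cntf, the astrocytic ciliary neurotrophic factor, was at 0.368 ± 0.175 and 2.04 ± 1.09 TPM and passed the filter only through the controls (limma adjusted p = 0.019). The Cntf call was lost without control 7 (adjusted p = 0.055) and without controls 7 and 9 (0.0611). Ctf1, cardiotrophin 1, at 2.15 ± 1.06 and 3.18 ± 2.15 TPM, did not pass (SD, n = 5 each; limma adjusted p = 0.63). Below the filter, Osm lay between 0.15 and 0.32 TPM in miR-130a libraries and between 0.21 and 1.01 TPM in controls, and Lif between 0.12 and 0.27 and between 0.22 and 1.32 TPM. Both were highest in controls 7 and 9. Clcf1 reached 0.61 TPM in miR-130a libraries and 2.14 TPM in controls, Il6 reached 0.50 and 0.12 TPM, Il11 0.41 and 0.54 TPM, Il27 0.32 and 0.70 TPM, and Ctf2 0.07 and 0 TPM.

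Of the 5 other receptor chains, 3 were tested, and 1 fell, where 11.3% of all tested genes were called lower. Without control 9, 2 were lower, in a fit where 2922 of the 15680 tested genes were lower. Il6ra, the interleukin-6 binding chain, was at 1.72 ± 0.212 TPM in miR-130a libraries and 3.67 ± 0.805 TPM in controls, without overlap (SD, n = 5 each; log2 fold change −0.77, limma adjusted p = 0.00662). Cntfr, at 60.1 ± 11.0 and 78.4 ± 18.4 TPM, and Il11ra1, at 31.5 ± 3.6 and 34.9 ± 4.69 TPM, did not pass (SD, n = 5 each; limma adjusted p = 0.185 and 0.446). Il27ra lay between 0.17 and 0.52 TPM in miR-130a libraries and between 0.38 and 1.16 TPM in controls, and Il31ra under 0.70 TPM in all libraries.

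Below the receptors, 8 of 14 signalling genes fell and 0 rose, with a median log2 fold change of −0.45. Over all tested genes 11.3% were called lower. The lower signalling genes numbered 3 without a filter, 6 with median-ratio scaling and 5 with quantile normalization. Of the 8 in the main fit, Socs1 (0.492 TPM in miR-130a libraries and 2.24 TPM in controls) and Stat5a (0.916 and 2.08 TPM), named after their values were seen, passed the filter only through the controls. Shc1, an adaptor of growth factor and cytokine receptors, was at 5.17 ± 0.804 TPM in miR-130a libraries and 12.2 ± 1.75 TPM in controls, and Stat3 at 20.4 ± 2.84 and 33.1 ± 4.95 TPM (SD, n = 5 each; limma adjusted p = 0.000873 and 0.00508). Socs3, the STAT3-induced inhibitor that binds gp130, was chosen after its values were seen and was at 1.74 ± 0.463 and 6.12 ± 3.25 TPM (SD, n = 5 each; limma adjusted p = 0.0184, but 0.052 without miR-130a library 13 and 0.0549 without controls 7 and 9). The kinase genes Jak1 and Jak2, likewise chosen afterwards, were at 60.2 and 67.5 TPM and at 10.8 and 12.4 TPM in miR-130a and control libraries and did not pass (limma adjusted p = 0.409 and 0.33). Of 12 textbook STAT3 targets, 6 fell, 0 rose and 6 did not pass, with 3 lower without a filter and 4 with median-ratio scaling or quantile normalization. Of the 6 that fell in the main fit, Timp1 and Bcl3 (0.924 TPM in miR-130a libraries and 4.31 TPM in controls, named after its values were seen) passed the filter only through the controls. Those with the lowest p-values were the metalloproteinase inhibitor Timp1 (0.918 ± 0.207 and 3.97 ± 1.80 TPM), the cyclin Ccnd1 (30.3 ± 4.22 and 49.2 ± 11.0 TPM) and the transcription factor Cebpd (1.09 ± 0.381 and 3.55 ± 1.63 TPM; SD, n = 5 each; limma adjusted p = 0.00388, 0.0119 and 0.0134). Without controls 7 and 9, 5 signalling genes and 4 STAT3 targets were lower, and the signalling genes also numbered 4 without miR-130a library 13 or 14 or control 7, and 5 without miR-130a library 17 or control 3.

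Promoters of the members were searched for the STAT motif TTCNNNGAA and the AP-1 motif TGANTCA on both strands, in RefSeq windows from 250 bases before to 50 after each annotated start (10 windows for the 9 genes, Lifr having 2). The STAT motif was found in 2 member windows, Steap4 and Gfap, against 8.3% of 32851 windows of the same length, and the AP-1 motif in 1, Osmr, against 7.81%. These are shown because STAT3 and AP-1 are among the transcription factors tied to reactive gliosis. The motif is in capitals with 10 bases on either side, at chr5:7960346-7960374 (plus strand) for Steap4, chr11:102897184-102897212 (minus strand) for Gfap and chr15:6874294-6874320 (minus strand) for Osmr, in GRCm38.p6.
Steap4: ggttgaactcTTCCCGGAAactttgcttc
Gfap: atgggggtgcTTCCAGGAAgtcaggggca
Osmr: gccccgtagtTGATTCAtagctggggc
The Steap4 motif begins 116 bases before the start, that of Gfap spans it, and that of Osmr begins at base 4 of the transcript.

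Other genes of reactive astrocytes were read from 3 lists taken from mouse injury models. All 6 further pan-reactive genes fell, with a median log2 fold change of −1.38, where 11.3% of all tested genes were called lower and 2.19% higher. Timp1 and another of the 6 are also in the list of STAT3 targets above, so these counts are not separate. Ceruloplasmin (Cp), a copper-carrying ferroxidase, was at 5.84 ± 1.86 TPM in miR-130a libraries and 17.7 ± 5.35 TPM in controls, and the chemokine Cxcl10 at 10.7 ± 8.73 and 59.1 ± 31.1 TPM (SD, n = 5 each; limma adjusted p = 0.00283 and 0.00554), with Timp1, which passed the filter only through the controls, as above. Of 12 genes first found after bacterial lipopolysaccharide, 7 of 11 tested fell and 0 rose. The class I molecules H2-D1 (153 ± 75.7 and 739 ± 331 TPM) and H2-T23 (51.9 ± 20.1 and 182 ± 87.0 TPM), whose reads may be shared with relatives, and the interferon-induced GTPase Gbp2 (9.56 ± 7.67 and 70.9 ± 48.4 TPM) had the lowest p-values (SD, n = 5 each; limma adjusted p = 0.00314, 0.00561 and 0.00535). These are also genes of antigen presentation and the interferon response in many cell types. Of 12 genes first found after ischaemia, 6 were tested, 2 fell and 1 rose. Cd14, an endotoxin co-receptor, was at 4.22 ± 0.923 and 7.45 ± 1.71 TPM, and the membrane protein gene Emp1 at 1.28 ± 0.377 and 3.34 ± 1.79 TPM (SD, n = 5 each; limma adjusted p = 0.0181 and 0.0433), and the Cd14 call was lost with quantile normalization. Ptgs2, cyclooxygenase 2, which neurons also express, was the 1 gene of these lists that rose, at 6.47 ± 0.914 and 4.55 ± 0.580 TPM (SD, n = 5 each; limma adjusted p = 0.0395). The Emp1 call was lost without any 1 of 8 libraries (all but controls 4 and 5), and so was that of Ptgs2 (all but miR-130a 17 and 18), with limma adjusted p up to 0.104 and 0.0939. Without controls 7 and 9, 5 pan-reactive, 6 lipopolysaccharide and 1 ischaemia gene were lower.

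General astrocyte markers, a list that holds none of the reactive genes above, were read as a measure of astrocyte RNA. Whether these markers themselves change in reactive astrocytes was not tested. Of 15, 2 fell and 0 rose, where 11.3% of all tested genes were called lower. Without control 9, 4 fell, in a fit where 2922 of the 15680 tested genes were lower. The median log2 fold change was −0.26, against −0.09 over all genes tested, and 11 of the 15 were negative. Their summed level was 3486 to 4297 TPM in miR-130a libraries and 3476 to 4448 TPM in controls. Mlc1, an astrocyte membrane protein, fell to 113 ± 12.7 TPM in miR-130a libraries, against 164 ± 20.1 TPM in controls (SD, n = 5 each; limma adjusted p = 0.00792), a call lost with median-ratio scaling. Atp1b2, a sodium pump subunit, was at 213 ± 34.2 and 303 ± 54.9 TPM (SD, n = 5 each; limma adjusted p = 0.0376), a call lost without any 1 of 8 libraries (all but miR-130a 17 and control 9; adjusted p up to 0.0976). Sox9, an astrocyte transcription factor, did not pass, at 11.4 ± 2.00 and 15.5 ± 1.96 TPM (SD, n = 5 each; limma adjusted p = 0.054). Relative to the mean log2 value of these 15 markers in the same library, 7 of the 9 members were lower: Serpina3n by −1.73, Vim by −1.64, Gfap by −1.62, Osmr by −1.01, S1pr3 by −0.77, Il6st by −0.64 and Steap4 by −0.31 (exact permutation p = 0.00794 each, 0.0129 adjusted over the 13 ratios). For each of these 7 all miR-130a libraries lay below all controls on this scale. Of the 15680 genes tested, 3.19% did so, while 4.19% had all miR-130a libraries above all controls. Steap4, under 1 TPM in all libraries, is not among those 15680 genes, so that share does not apply to it. The Steap4 difference was −1.19 with a pseudocount of 0.1. Cd44 was lower by −0.68 and Lifr higher by 0.45 on this scale, and neither passed (exact permutation p = 0.0556 and 0.167, adjusted 0.0722 and 0.181). The Cd44 difference passed without miR-130a library 15 or control 4 or 5 (adjusted permutation p of 0.0229 to 0.0459) and with a pseudocount of 0.1 (−0.98, adjusted permutation p = 0.0375). The Lifr difference passed without control 9 (0.67, adjusted permutation p = 0.0413).

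**Figure D4:**
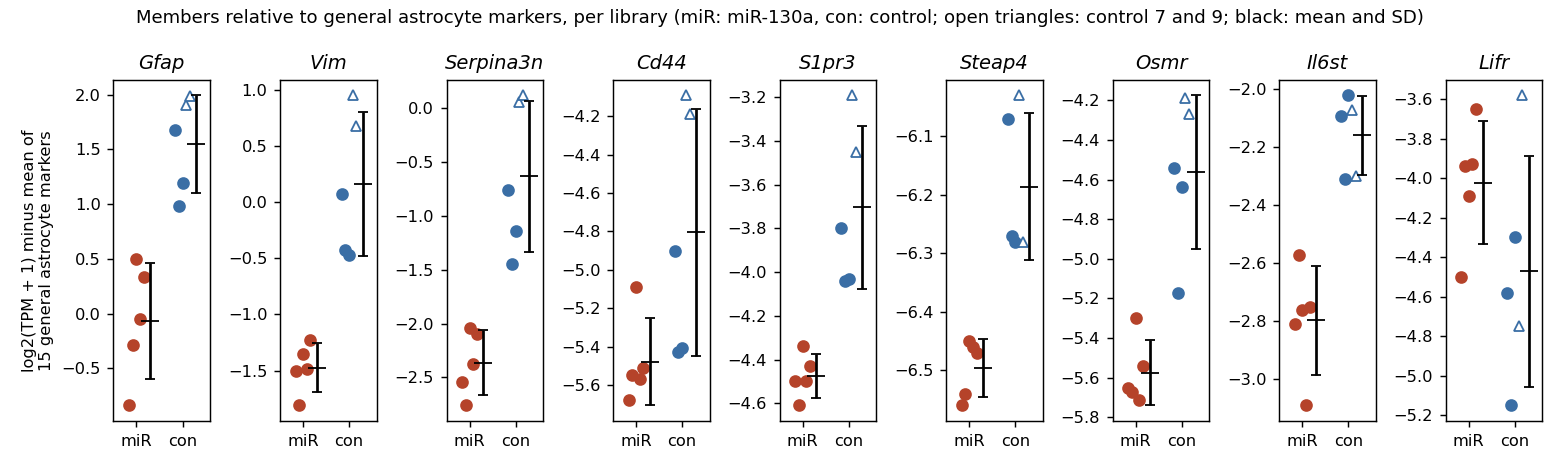
Log2(TPM + 1) of each member minus the mean of 15 general astrocyte markers in the same library, miR-130a libraries (miR) at left and control libraries (con) at right, with mean and SD in black (n = 5 each) and a separate scale per panel. The groups do not overlap for 7 of the 9 genes, and they overlap for Cd44 and Lifr.

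Markers of other cells that express some of the members moved in the same direction. Beside the counts that follow, 11.3% of all tested genes were called lower with all libraries. The summed level of 12 microglial markers was 734 to 1069 TPM in miR-130a libraries and 1905 to 3985 TPM in controls, and 11 of the 12 fell. For endothelial cells 10 markers summed to 220 to 267 and 307 to 366 TPM, with 7 lower, and 12 mural cell and fibroblast markers to 137 to 195 and 228 to 329 TPM, with 7 lower. Markers of border myeloid cells and lymphocytes summed to 57.9 to 87.0 and 76.7 to 287 TPM, with 5 of 12 lower and 3 not tested. Of the 9 tested, 3 passed the filter only through the controls, and 2 had every miR-130a library below every control. For neurons 10 markers summed to 5898 to 6788 and 4311 to 7570 TPM, with 0 called. Oligodendrocyte, precursor, and ependymal and choroid plexus sums also overlapped between the groups. Without controls 7 and 9, the markers called lower by limma were 10 microglial, 6 endothelial, 3 mural cell and fibroblast and 3 border ones. In that fit 2 neuronal and 2 precursor markers were also lower, against 15.6% of all tested genes. Mitochondrially encoded genes took 14.5% to 18.5% of TPM in miR-130a libraries and 11.9% to 15.3% in controls. Of these 13 genes, 8 were called higher by limma (5 without controls 7 and 9) and 0 lower, against 2.19% of all tested genes called higher. Their median log2 fold change was 0.49. The part of each of these in the members' results was not tested.

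Control libraries 7 and 9 stood above controls 3, 4 and 5 in 6 of the 9 members and also had the highest microglial and border-cell sums (3730 and 251 TPM on average, against 2254 and 97.7 TPM in the other controls). Without libraries 7 and 9, 6 of the 8 tested members were called lower by limma, against 15.6% of all tested genes. These were the 7 called with all libraries less Cd44, and Lifr was not called in either fit. Fold changes were then smaller for the filament, inhibitor and receptor genes raised in those libraries, with controls 3, 4 and 5 averaging 2.82 times the miR-130a mean for Gfap against 3.47 times with all controls, and 2.68 against 3.88 times for Vim. For Il6st the ratio was 1.88 against 1.85. Within the miR-130a group, library 18 was the highest for 7 of the 9 genes, and library 13 or 14 the lowest for 8.

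Relatives of single members were read in the same way. Of 11 other intermediate filament genes, 10 were tested and 1 fell, close to the 11.3% of all tested genes called lower. The 1 that fell was the nuclear lamin gene Lmnb1. It was at 4.88 ± 0.975 TPM in miR-130a libraries and 7.23 ± 1.43 TPM in controls (SD, n = 5 each, limma adjusted p = 0.0499). The call was lost without any 1 of 8 libraries (all but miR-130a 15 and control 9, limma adjusted p up to 0.122). Without control 9, 3 of the family were lower, in a fit where 2922 of the 15680 tested genes were lower. The muscle filament gene Des (1.52 ± 0.350 and 2.18 ± 0.425 TPM) and Synm, a filament partner of vimentin in astrocytes (9.73 ± 1.18 and 11.5 ± 1.04 TPM), did not pass (SD, n = 5 each; limma adjusted p = 0.184 and 0.202). Of 12 genes of hyaluronan and CD44, 8 were tested, and 3 fell. Msn, moesin, which ties CD44 to actin, was at 14 ± 2.35 and 39.6 ± 11.2 TPM (SD, n = 5 each; limma adjusted p = 0.00115). The CD44 ligand Spp1 was at 10.3 ± 3.6 and 19.9 ± 6.36 TPM and the hyaluronidase Hyal1 at 2.03 ± 0.540 and 3.46 ± 0.664 TPM (SD, n = 5 each; limma adjusted p = 0.0452 and 0.049). Each of these 2 calls was lost without any 1 of 7 libraries, for Spp1 all but miR-130a 15 and 18 and control 5, and for Hyal1 all but miR-130a 15 and controls 3 and 9 (adjusted p up to 0.112 and 0.121).

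Of the other sphingosine-1-phosphate receptors, S1pr1 (means of 76.4 and 85.5 TPM in miR-130a and control libraries) and S1pr5 (8.67 and 10.9 TPM) did not pass (n = 5 each; limma adjusted p = 0.364 and 0.323). S1pr2 (0.44 to 0.70 and 0.68 to 1.5 TPM) and S1pr4 (0.34 to 0.68 and 0.45 to 1.98 TPM) were below the filter. Of 7 genes that make, break or move sphingosine-1-phosphate, 6 were tested and 2 fell: the kinase Sphk2 (9.65 ± 0.755 and 17.8 ± 3.0 TPM) and the lyase Sgpl1 (15.7 ± 2.65 and 22.3 ± 3.90 TPM; SD, n = 5 each; limma adjusted p = 0.00282 and 0.0453). The Sgpl1 call was lost without any 1 of 6 libraries (miR-130a 13, 14 and 17, controls 3, 5 and 7; adjusted p up to 0.113). Sphk1, the other kinase, did not pass, at 2.49 ± 1.14 and 4.29 ± 0.828 TPM (SD, n = 5 each; limma adjusted p = 0.0742). In the Steap family, Steap3, the ferrireductase of endosomes, fell to 5.77 ± 0.784 TPM in miR-130a libraries, against 8.94 ± 1.41 TPM in controls, and Steap2 was at 2.52 ± 0.184 and 2.38 ± 0.617 TPM without passing (SD, n = 5 each; limma adjusted p = 0.0142 and 0.783). The Steap3 call was lost with median-ratio scaling and quantile normalization (adjusted p = 0.0723 and 0.122). Steap1 did not exceed 0.36 TPM in any library. Beside the counts in these families, 11.3% of all tested genes were called lower.

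The genes whose profiles over the 10 libraries lay nearest to each member were found by the root mean square difference of gene-centred log2(TPM + 1) values, among 13016 named protein-coding genes. Vim and Serpina3n were each other's nearest, 0.15 apart, where the deviation of Serpina3n from its own mean was 1.09. Next came Slc15a3, a lysosomal peptide transporter (0.17 from Vim), and Milr1, an immunoglobulin-like receptor gene of mast and myeloid cells (0.17 from Serpina3n). Nearest to Gfap were Unc93b1, which carries Toll-like receptors to endosomes (0.18), and A2m, the protease inhibitor alpha-2-macroglobulin (0.21). Osmr lay nearest to Vwa5a (0.10), and Cd44 to Srgn, a granule proteoglycan of blood cells (0.11), and Gimap6 (0.13). Srgn is also in the lipopolysaccharide list of reactive astrocyte genes above. S1pr3 lay nearest to Efemp2, an extracellular matrix protein (0.08), and Relb, an NF-kB subunit (0.10). Il6st lay nearest to the kinase Nek9 (0.08) and Tor1aip1, a protein of the inner nuclear membrane (0.09), and Steap4 to Rhbdd1 and Selenon (0.08 each). Lifr had no close neighbour, the nearest being Sart1 and Zfp967 at 0.29 against its own deviation of 0.48.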

How the data were processed

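The deposited values are TPM for each gene in each library, made by the authors. TPM keeps no depth, so reads behind a value are unknown and no counting interval was computed. The tools named, per the submitters' processing notes, are HISAT2, RSEM, fastp and DESeq2, with the build GRCm39, and their versions and roles are not given in the sources used here. Libraries were stranded and made from RNA whose integrity number was 6.5 or more, per the labels' protocols. The 2 columns of group means made by the authors were not used.

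Columns were assigned to libraries by sample title. Groups were compared on log2(TPM + 1) with limma 3.58.1 (trend) in R 4.3.3 (package data.table, version 1.17.8), 5 against 5, 2-sided, without covariates, since no batch is labelled. The fit was tested on simulated data. Ratios per library were compared by exact permutation over all splits (Python 3.11.15, numpy 2.4.6, pandas 2.3.3, scipy 1.17.1, statsmodels 0.14.6), and figures drawn with matplotlib 3.10.9. The labels do not say how many mice gave the libraries, so p-values measure the spread between libraries, and 0 pairs of libraries were identical. Group and library number run together, so any difference in handling that followed the numbers cannot be told apart from the virus. Members and lists were chosen with earlier results of these data known. The 14 gene lists hold 134 entries, with 4 genes in more than 1 list. Named were the members, the 3 lowest-p tested genes of each list, all genes of the small receptor, ligand and Steap lists, and the 2 nearest profiles per member (clone-named, predicted and noncoding genes left out); genes outside that rule are said to be so, and a few genes inside it are not reported here. The values rest on GRCm39, so the GRCm38 coordinates belong to the RefSeq and GENCODE sequences only, matched by symbol (promoters) and gene identifier (UTRs) for all 9 members. Alternatives covered the pseudocount, filter, scaling, moderation and each library left out.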

Additional observations from a re-analysis of the deposited data

Results flagged for a closer look

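Among 120 groups of 5 values (the members, their ratios and the named list genes that passed the filter), 6 held a library set far apart from the other 4. Chance gives about 1 in 20 groups, which is also the share found here, so the 6 are no more than chance gives. Within the miR-130a group these were library 15 for Gbp2 (23 TPM) and Serpina3f (0.850 TPM), each the highest, and library 17 for Il11ra1 (37.7 TPM), the highest. Within the controls they were library 7 for Lmnb1 (9.74 TPM), the highest, and library 9 for Il11ra1 (43.2 TPM), the highest, and for Sphk2 (12.5 TPM), the lowest. None of the 9 members and none of their ratios was set apart in this way in either group. The cause was not tested.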

How the results depend on the processing

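Gfap, Vim, Serpina3n, S1pr3, Osmr and Il6st stayed lower and past the limma threshold, and Lifr stayed short of it, under all 20 alternatives run, with 6 to 8 members lower in each. Cd44 missed the threshold without a filter (log2 fold change −0.89), with median-ratio scaling (−0.82), quantile normalization (−0.72), rescaling to protein-coding genes (−0.92) or without mitochondrially encoded genes (−0.89), and without controls 7 and 9 (−0.45), and ranged from −1.02 to −0.72 with 1 library left out. Steap4 moved from −0.52 to −1.40 with a pseudocount of 0.1 and −0.80 with 0.5, since its values lie under 1 TPM. Over all genes, 2110 calls became 1302 without a filter and ranged from 1254 (without control 7) to 3421 (without control 9), with 1306 without miR-130a library 13 and 1279 without library 14. Their split of 1767 lower and 343 higher became 1192 and 862 with median-ratio scaling and 1046 and 1071 with quantile normalization, which set the median of all genes at 0.01 and 0.05. Of 98 tested genes of the pathway lists, 41 were lower and 1 higher. The lower ones numbered 22 without a filter, 26 with median-ratio scaling, 26 with quantile normalization and 24 to 44 with 1 library left out. The higher ones numbered 0 without a filter, 2 with quantile normalization, 0 without controls 7 and 9 and 0 to 1 with 1 library left out. Of 28 named list genes called, 14 were lost in at least 1 alternative and 0 changed sign. Of 13 ratios, 9 passed, 11 with a pseudocount of 0.1, 8 to 10 with 1 library left out and 0 without controls 7 and 9, where the smallest exact permutation p that 3 against 5 libraries allow is 0.0357, or 0.0516 as adjusted. The Gfap-to-Vim difference ranged from −0.09 to 0.20 with 1 library left out (−0.01, −0.09 and −0.02 without miR-130a libraries 14, 15 and 18, −0.09 and 0.00 without controls 7 and 9 singly) and was −0.15 without both. Steap2 was at −0.05 without both. The cause of these shifts was not tested unless stated. No paired analysis was possible because the library numbers of the groups share no value.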
